A study of Mus musculus with 15 samples.

Results

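The 39 genes described here are expressed when cells divide. They were chosen by symbol, as 17 genes of DNA replication and S phase, 17 genes of mitosis and 5 that are used in several phases of the cell cycle, out of 17793 genes with a probe on the array. Levels came from total RNA of bulk tissue of male mice of an isogenic 129S1/SvImJ;C57Bl/6J cross, 1 Illumina BeadChip array a sample, at week 52 of the diet. The 3 groups were livers of 5 mice on chow diet with normal water (CD NW; mice 1L, 1R, 2L, 2N and 3N), livers of 5 mice on Western diet with sugar water, a fructose-glucose solution (WD SW; mice 4N, 4R, 5N, 5R and 6L), and tumors of these same 5 WD SW mice. Because each WD SW liver lay beside a tumor, the diet and the presence of a tumor cannot be told apart in the livers.

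In S phase a cell copies its DNA: cyclin E with its kinase starts the phase, Cdt1 loads the Mcm2 to Mcm7 helicase onto origins, the clamp Pcna and the nuclease Fen1 act at the fork, and ribonucleotide reductase, thymidylate synthase and thymidine kinase supply nucleotides. In mitosis, Cdk1 with cyclin B, the kinases Plk1, Aurka and Aurkb and the spindle proteins Prc1, Nusap1 and Kif11 separate the chromosomes, under the spindle checkpoint (Bub1, Bub1b) and the anaphase-promoting complex (Cdc20, Ube2c). Hepatocytes of an adult liver rarely divide, and they re-enter the cycle after injury or loss of tissue. S-phase genes are known targets of E2F factors, whereas genes of mitosis are known for the cell cycle homology region (CHR), read by the DREAM and MuvB complexes, and for CCAAT boxes, read by NF-Y.

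Promoter windows of RefSeq on build GRCm38.p6, 250 bases before to 50 after a start site, were at hand for 33 of the 39 genes and for 27025 genes in all. The words searched on both strands were TTTCCCGC, TTTCGCGC, TTTGCCGC and TTTGGCGC for E2F, TTTGAA and TTCGAA for the CHR, and CCAAT. A gene with several windows was counted when any of them held the word. A CHR word was held by 12 of 16 mitotic genes with a window (75%), 3 of 14 S-phase genes with a window (21.4%) and 21.7% of all genes. CCAAT was held by 14 of these 16 mitotic genes (87.5%), 8 of these 14 S-phase genes (57.1%) and 41.1% of all genes. The E2F words were held by 1 of the 16 mitotic genes (6.25%), 5 of the 14 S-phase genes (35.7%) and 2.6% of all genes. Words of different motifs overlapped at 1 place in the windows of the 33 genes. The mitotic genes Nusap1 and Birc5 and the S-phase genes Tk1, Tyms, Dut and Ccne1 held none of these words. The words thus did not sort every gene described below, and a match is a string of letters and not a measured site.

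The 200 bases before the start site are shown for Prc1 and Cdc20, the mitotic genes with the largest differences between tumors and either liver group, and for Mcm5 and Mcm6, helicase subunits whose tumor minus liver differences came nearest to those of mitotic genes. Capitals mark the words as read on either strand (CCAAT is ATTGG on the other), with 1 CCAAT and 1 CHR in Prc1, 2 CCAAT and 1 CHR in Cdc20, 2 CCAAT and 2 overlapping E2F words in Mcm5, and 2 CCAAT and 3 E2F words in Mcm6, of which 2 overlap. For Prc1 the later of 2 listed start sites was used.
Prc1, chr7:80294276-80294475, plus strand: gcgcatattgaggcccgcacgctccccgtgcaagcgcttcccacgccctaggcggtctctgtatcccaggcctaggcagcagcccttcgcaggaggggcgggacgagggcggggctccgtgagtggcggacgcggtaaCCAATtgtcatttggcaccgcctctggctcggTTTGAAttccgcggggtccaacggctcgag
Cdc20, chr4:118437344-118437543, minus strand: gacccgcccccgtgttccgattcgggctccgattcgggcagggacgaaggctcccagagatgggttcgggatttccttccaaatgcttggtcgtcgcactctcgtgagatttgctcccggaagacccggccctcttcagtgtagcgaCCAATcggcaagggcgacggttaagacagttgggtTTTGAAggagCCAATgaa
Mcm5, chr8:75109309-75109508, plus strand: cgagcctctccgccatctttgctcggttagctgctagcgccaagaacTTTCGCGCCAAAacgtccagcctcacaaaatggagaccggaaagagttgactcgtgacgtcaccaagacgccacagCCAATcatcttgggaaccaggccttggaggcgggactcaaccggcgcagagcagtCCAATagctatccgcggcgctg
Mcm6, chr1:128359706-128359905, minus strand: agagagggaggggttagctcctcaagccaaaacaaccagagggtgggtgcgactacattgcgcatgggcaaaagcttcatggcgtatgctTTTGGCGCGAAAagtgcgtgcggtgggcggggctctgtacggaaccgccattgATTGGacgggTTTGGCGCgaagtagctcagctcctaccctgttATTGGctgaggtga
The mitotic pair holds CHR words and no E2F word in these stretches, and the helicase pair holds E2F words and no CHR. Other helicase subunits did not share this split. Mcm2 holds 1 CHR, 1 CCAAT and no E2F word in its stretch, and Mcm7 holds 1 CHR and 1 E2F word before 1 of its start sites. Mcm4 had no window.

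A probe counted as above background on an array when its detection p, the share of 1526 chemosensory receptor probes (Olfr, Vmn1r, Vmn2r and Taar genes, in place of control probes) with at least its signal, was under 0.01. The lowest level above background was 5.09 to 5.77 on the 15 arrays, in log2 units of the background-corrected and quantile normalized signal, and all levels below are on this scale. Of the 39 genes, 37 had a probe. No probe was annotated to Mki67, the gene of the Ki-67 antigen, or to Ccnb1, cyclin B1. A further 9 genes were above background on no array, namely the cyclins Ccne2, Ccnb2 and Ccna2, the Cdt1 inhibitor Gmnn, the checkpoint kinase Bub1, Ube2c, the spindle motor Kif11 and the Cdk-binding proteins Cks1b and Cks2. These had levels of 4.19 to 5.0, which were not well above background on any array.
Another 5 genes (Ccne1, Mcm3, Cdk1, Bub1b and Aurkb) were above background on 1 to 4 arrays, 16 on 5 to 14 arrays and 7 on all 15.

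Probes above background numbered 12293 to 15829 an array, and CD NW liver 2N had the fewest. The WD SW liver of mouse 5R was set against 173 genes higher and 153 genes lower in the other 4 tumors. Its median position lay 0.54 and 0.33 of the way from the other livers to those tumors. The other 4 livers helped to choose these genes and set the zero point, so their own positions (-0.13 to 0.09) had to lie near it. No other liver was held out in this way, so these values cannot tell whether the liver of mouse 5R stood apart. Results are also given without it. Of 11 hepatocyte markers 10 had a probe and all 10 were above background on at least 3 arrays of each group, with a summed linear level of 166592 to 188911 in CD NW livers, 143795 to 179738 in WD SW livers and 133167 to 146750 in tumors. In bulk tissue, fewer cells of a type and less RNA in each cell cannot be told apart.

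More mitotic genes were above background in every WD SW liver than in any CD NW liver, while the tumors differed among themselves, with 5 (Ccnb2, Bub1, Ube2c, Kif11 and Cks2) above background on no array and Cenpa on all. Of the 16 mitotic genes with a probe, 1 to 2 were above background on each CD NW array and 4 to 10 on each WD SW liver array. Tumors 4N, 5N and 5R had 11, 11 and 10, tumor 4R had 6, and tumor 6L had 2. S-phase genes differed less, with 8 to 10 of 17 above background on CD NW arrays, 10 to 14 on WD SW liver arrays and 10 to 14 on tumor arrays. Per-array values are given in the order of mice 1L, 1R, 2L, 2N and 3N for CD NW and 4N, 4R, 5N, 5R and 6L for WD SW livers and tumors, and fold changes are differences of mean log2 level tested with limma over all genes, with the adjusted p of Benjamini and Hochberg and a threshold of 0.05.

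**Figure D1:**
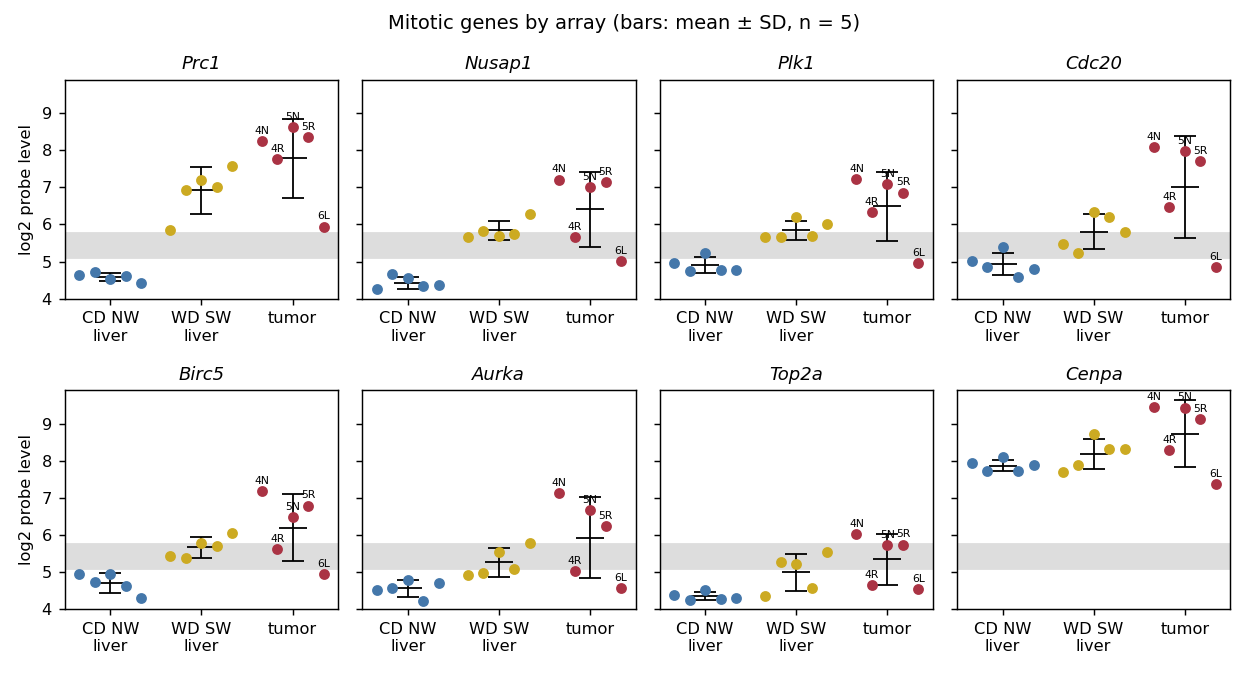
Log2 probe levels of the 8 mitotic genes above background on at least 5 of 15 arrays, 1 point an array, by group, with mouse labels on the tumors, bars for mean ± SD (n = 5) and a gray band for the range of the lowest level above background on the arrays (5.09 to 5.77). Tumors 4N, 5N and 5R lie above every liver in all 8 panels, and tumor 6L is the lowest tumor in each.

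Prc1, which bundles microtubules between the separating chromosomes, had the largest differences of the 37 genes with a probe between WD SW or tumor and CD NW. It was at 4.65, 4.71, 4.52, 4.61 and 4.43 in CD NW livers, above background in none. In WD SW livers it was at 5.85, 6.94, 7.21, 7.02 and 7.57, and in tumors at 8.24, 7.76, 8.61, 8.35 and 5.94. All WD SW livers and tumors were thus above all CD NW livers, while tumor 6L fell among the WD SW livers. WD SW livers exceeded CD NW livers at least 2.73-fold (difference 2.33 ± 0.27 SE, adjusted p = 0.00131 by limma) and tumors exceeded them at least 4.96-fold (3.20 ± 0.41, adjusted p = 0.000181), both bounds being set by the background of the CD NW arrays.

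Nusap1, a spindle microtubule protein, was above background on no CD NW array (4.27, 4.66, 4.55, 4.33 and 4.37). Its levels were 5.67, 5.82, 5.68, 5.73 and 6.29 in WD SW livers and 7.21, 5.65, 7.01, 7.15 and 5.02 in tumors. WD SW livers did not overlap CD NW livers, and the tumors fell apart into 3 high ones and 4R and 6L, which were below all WD SW livers. The rise in WD SW livers was at least 1.29-fold (1.41 ± 0.17, adjusted p = 0.0014 by limma, and 0.00145 with no filter). Nusap1 entered the filtered test through WD SW livers alone.

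The mitotic kinase Plk1 was at 4.96, 4.75, 5.24, 4.77 and 4.77 in CD NW livers, on no array above background, and at 5.66, 5.66, 6.20, 5.68 and 6.02 in WD SW livers. Tumor levels were 7.22, 6.33, 7.09, 6.86 and 4.96. Thus 4 tumors exceeded every liver and tumor 6L was at the CD NW level. WD SW livers were at least 1.30-fold above CD NW livers (0.95 ± 0.17, adjusted p = 0.00686 by limma, and 0.0148 with no filter). The increase missed the threshold in a joint fit of all 15 arrays (adjusted p = 0.0925 by limma). Plk1 entered the filtered test through WD SW livers alone.

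Cdc20, the activator of the anaphase-promoting complex, had CD NW levels of 5.03, 4.84, 5.40, 4.60 and 4.79 and WD SW liver levels of 5.48, 5.22, 6.33, 6.19 and 5.81, so that WD SW liver 4R overlapped the highest CD NW liver. Tumor levels spread from 4.86 in 6L through 6.46 in 4R to 7.70, 7.97 and 8.09 in 5R, 5N and 4N. Tumors exceeded CD NW livers by 2.08 ± 0.52 (adjusted p = 0.0133 by limma), although tumor 6L lay within the CD NW range. WD SW livers exceeded CD NW livers by 0.88 ± 0.24 (adjusted p = 0.0415 by limma), a call lost when any of 7 of the 10 arrays was left out (adjusted p up to 0.0939, and 0.0735 without WD SW liver 5R) and under 7 of 9 processing alternatives (adjusted p up to 0.29, and 0.0739 with no filter).

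Cdk1, the kinase that drives entry into mitosis, was above background on 3 arrays by its brightest probe. This probe stood at 4.31, 4.26, 4.33, 4.25 and 4.41 in CD NW livers, at 4.93, 4.64, 5.05, 4.95 and 5.22 in WD SW livers and at 5.62, 5.10, 5.92, 5.39 and 4.36 in tumors. Top2a, the topoisomerase that untangles replicated chromosomes, was at 4.38, 4.26, 4.52, 4.29 and 4.30 in CD NW livers, at 4.37, 5.28, 5.23, 4.57 and 5.56 in WD SW livers and at 6.04, 4.66, 5.73, 5.75 and 4.54 in tumors. On these probes both genes were highest in tumors 4N, 5N and 5R and in or next to the CD NW range in tumor 6L. Neither entered the filtered comparisons with CD NW livers, and both are given with no fold because the means of the brighter groups were not above the lowest detected level. Tested with no filter by limma, the Cdk1 probe was higher in WD SW livers (adjusted p = 0.0059) and in tumors (adjusted p = 0.0158) than in CD NW livers. A probe of Cdk1 of nearly the same mean level had another order, with means of 4.99 in CD NW livers, 4.50 in WD SW livers and 4.96 in tumors and 1 array above background (tumor 5R), so the direction for Cdk1 rests on the probe. Top2a was higher in tumors (adjusted p = 0.0289) and missed the threshold in WD SW livers (adjusted p = 0.0978).

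The chromosomal passenger Birc5 (survivin) was at 4.31 to 4.96 in CD NW livers, 5.38 to 6.05 in WD SW livers and 4.96 to 7.18 in tumors. With no filter Birc5 was at least 1.15-fold higher in WD SW livers (adjusted p = 0.015 by limma) and at least 1.66-fold higher in tumors (adjusted p = 0.0194) than in CD NW livers, where it was above background on no array. The spindle pole kinase Aurka was at 4.22 to 4.79, 4.94 to 5.78 and 4.57 to 7.14 in the same groups, with adjusted p of 0.0592 and 0.053 in these tests. Cenpa, the histone variant of centromeres, was the only mitotic gene above background on every array, at 7.72 to 8.10, 7.70 to 8.73 and 7.37 to 9.46. For Cenpa, where no part of the range was hidden by background, WD SW livers differed from CD NW livers by 0.32 ± 0.19 (adjusted p = 0.306 by limma) and tumors by 0.86 ± 0.35 (adjusted p = 0.0912), neither past the threshold. The checkpoint kinase Bub1b and the passenger kinase Aurkb were above background on 4 arrays each by the probe used, of which 3 were tumors and 1 was a WD SW liver. Both were highest there in tumors 4N, 5N and 5R, at 5.8 to 6.69 for Bub1b and 5.68 to 5.89 for Aurkb. A dimmer probe of Bub1b did not share this order, and was above background on 1 array of each group and highest in CD NW liver 2N (5.82).

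Among S-phase genes, the helicase subunits Mcm2, Mcm4, Mcm5 and Mcm6 were higher in tumors than in CD NW livers and Tk1 was lower, whereas Mcm7 and most other replication genes passed in no comparison. Mcm4 had other probes that were above background on no array, with group means of 4.33 to 4.45. By its brightest probe it was bright on all arrays, at 7.29, 7.12, 7.24, 7.32 and 7.43 in CD NW livers, 7.85, 8.28, 8.57, 7.97 and 8.44 in WD SW livers and 8.0, 8.49, 8.82, 8.24 and 8.24 in tumors. No WD SW liver or tumor reached down to the CD NW range, and WD SW livers and tumors overlapped. The rises over CD NW livers were 0.94 ± 0.15 in WD SW livers (adjusted p = 0.00399 by limma) and 1.08 ± 0.16 in tumors (adjusted p = 0.000544), and tumors differed from WD SW livers by 0.13 ± 0.20 (adjusted p = 0.776).

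Mcm5 was above background in no CD NW liver (4.98, 5.18, 5.14, 4.57 and 5.40). It reached 5.34, 6.60, 7.21, 6.19 and 7.35 in WD SW livers and 7.15, 6.68, 7.47, 6.97 and 6.02 in tumors. WD SW liver 4N was in the CD NW range, and the other 4 WD SW livers and all tumors were above it. Tumors were at least 2.61-fold above CD NW livers (1.80 ± 0.26, adjusted p = 0.000434 by limma, and 0.00106 with no filter). Mcm5 entered the filtered test through tumors alone. WD SW livers, which entered only with no filter, were at least 2.09-fold above CD NW livers (1.48 ± 0.35, adjusted p = 0.0355 by limma). This call of WD SW livers was lost without any of 7 of the 10 arrays.

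Mcm2 was at 4.60, 4.88, 5.0, 4.72 and 5.33 in CD NW livers, in none above background, at 5.04, 5.38, 6.40, 5.79 and 6.31 in WD SW livers and at 5.36, 6.09, 6.57, 5.99 and 5.72 in tumors. Tumors exceeded CD NW livers at least 1.39-fold (1.04 ± 0.23, adjusted p = 0.00672 by limma, and 0.0149 with no filter), with tumor 4N next to the highest CD NW liver. Mcm2 too entered the filtered test through tumors alone. Mcm6 was at 4.24 to 4.53 in CD NW livers and 4.83 to 5.58 in WD SW livers, and in tumors it was at 6.48, 6.52 and 6.07 in 4N, 5N and 5R but at 4.95 and 4.54 in 4R and 6L, the same 3 tumors being highest as for the mitotic genes. With no filter Mcm6 was higher in WD SW livers (adjusted p = 0.0117 by limma) and in tumors (at least 1.18-fold, adjusted p = 0.0216) than in CD NW livers. Mcm7 overlapped between the groups (CD NW 5.74 to 6.82, WD SW 5.70 to 6.60, tumors 5.88 to 6.74), with adjusted p of 0.646 to 0.901 by limma in the 3 comparisons. A dimmer Mcm7 probe, above background on 14 arrays, gave a tumor minus WD SW liver difference of 0.63, against 0.23 by the probe used. Mcm3 was above background on 1 array, tumor 5N.

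**Figure D2:**
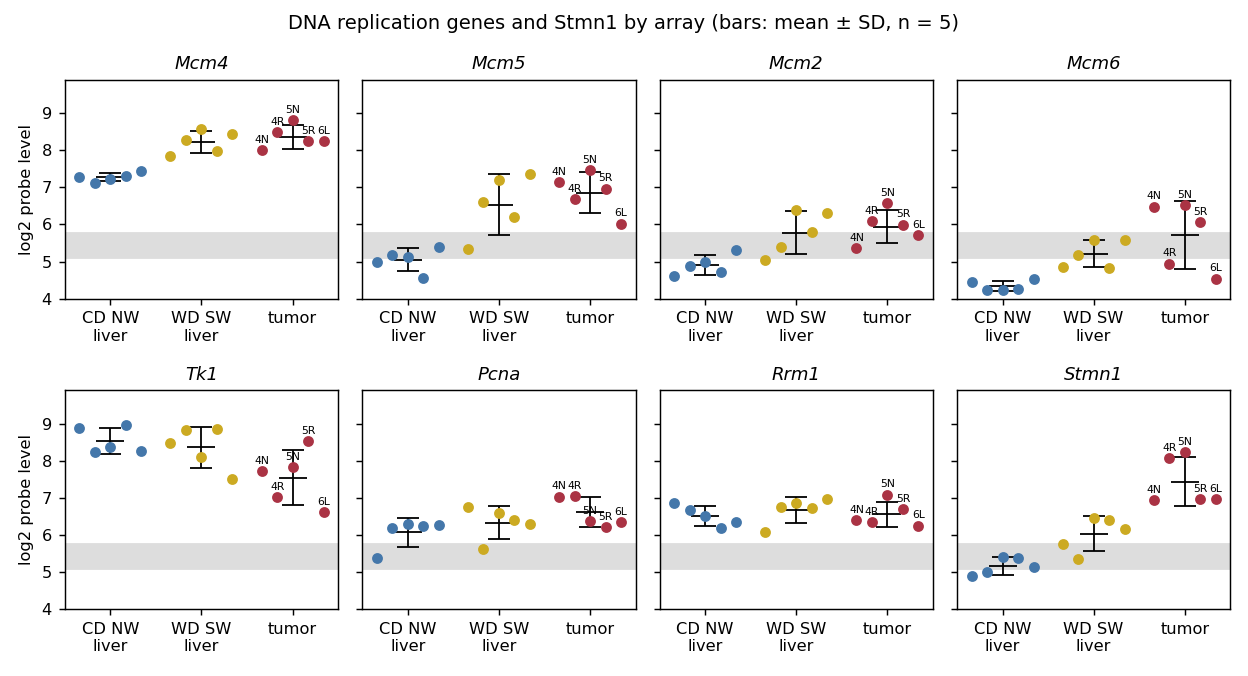
Log2 probe levels of 7 DNA replication genes and of Stmn1, 1 point an array, by group, with mouse labels on the tumors, bars for mean ± SD (n = 5) and a gray band for the range of the lowest level above background (5.09 to 5.77). Mcm4 is higher in all WD SW livers and tumors than in any CD NW liver, Tk1 is lower in the tumors of 4R and 6L than in any liver, and Pcna and Rrm1 overlap between the groups.

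Pcna, the sliding clamp of the replication fork, was at 5.37, 6.19, 6.31, 6.26 and 6.26 in CD NW livers, 6.75, 5.63, 6.60, 6.42 and 6.30 in WD SW livers and 7.04, 7.06, 6.38, 6.23 and 6.35 in tumors. The groups overlapped, and tumors differed from CD NW livers by 0.54 ± 0.24 (adjusted p = 0.123 by limma) and from WD SW livers by 0.27 ± 0.25 (adjusted p = 0.612). Ccne1, cyclin E1, was above background on 2 arrays, WD SW liver 4R and tumor 6L. Its levels were 4.61, 5.36, 4.39, 4.52 and 5.08 in CD NW livers, 4.57, 5.2, 4.90, 5.16 and 4.60 in WD SW livers and 5.26, 4.63, 4.61, 4.59 and 5.28 in tumors, so that no group stood out from the background.

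Tk1 is the cytosolic thymidine kinase. By its brightest probe it was at 8.88, 8.24, 8.37, 8.97 and 8.26 in CD NW livers, 8.48, 8.84, 8.11, 8.87 and 7.52 in WD SW livers and 7.72, 7.03, 7.83, 8.53 and 6.62 in tumors. Each tumor was below the liver of its own mouse, by 0.28 to 1.81, and tumor 5R overlapped the CD NW livers. Levels in tumors fell by 1.0 ± 0.32 against CD NW livers (adjusted p = 0.0375 by limma), a call lost when any of 6 of the 10 arrays was left out (adjusted p up to 0.0868), with median scaling (0.0759), with no filter (0.0571) and with the mean of its 2 kept probes (0.0646). Against WD SW livers the fall was 0.82 ± 0.36 (adjusted p = 0.246, and 0.0535 with the mouse as a block). A dimmer probe, above background on 13 arrays, gave tumor differences of -0.51 from CD NW livers and -0.43 from WD SW livers. Further probes of Tk1 were above background on no array. Whether the brightest probe reads Tk1 alone was not tested.

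The nucleotide and fork genes Rrm1, Rrm2, Tyms, Dut, Cdt1 and Fen1 passed the test in no comparison they entered. Thymidylate synthase (Tyms) differed by 0.04 ± 0.17 between WD SW and CD NW livers and by 0.08 ± 0.20 between tumors and CD NW livers. Ribonucleotide reductase subunit Rrm1 differed by 0.16 ± 0.19 and 0.05 ± 0.20 in these comparisons by its brightest probe, and by 0.64 and 0.32 by a dimmer probe above background on 14 arrays. Dut, which removes dUTP, was at 5.33 to 6.14 in tumors and 6.20 to 6.55 in CD NW livers, without overlap (-0.48 ± 0.18, adjusted p = 0.0693 by limma), and the flap nuclease Fen1 (CD NW 6.53 to 6.98, WD SW 6.50 to 7.85) differed between the livers by 0.38 ± 0.23 (adjusted p = 0.325). Rrm2 was dim (4.61 to 6.46 over all arrays, highest in tumor 4N), and the origin licensing factor Cdt1 was at 6.12 to 7.42 in CD NW livers, 6.58 to 7.08 in WD SW livers and 6.00 to 7.56 in tumors.

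Stmn1, stathmin, which destabilizes microtubules, was at 4.89, 5.0, 5.41, 5.40 and 5.14 in CD NW livers, 5.77, 5.35, 6.47, 6.41 and 6.18 in WD SW livers and 6.95, 8.07, 8.25, 6.97 and 6.96 in tumors. All 5 tumors were above all livers, and the highest was 5N, with 4R next, a tumor that was not among the highest for mitotic genes. Tumors exceeded WD SW livers by 1.40 ± 0.32 (adjusted p = 0.0345 by limma; 0.0228 with the mouse as a block; 1.61 and adjusted p = 0.0417 without mouse 5R). This call was lost without WD SW liver 4N, 4R or 6L or tumor 4R or 5N (adjusted p up to 0.0915), with median scaling (0.0594) and with no filter (0.057). Over CD NW livers, tumors rose by 2.27 ± 0.28 (adjusted p = 0.000139 by limma). WD SW livers exceeded CD NW livers by 0.87 ± 0.23 (adjusted p = 0.0356), a call lost without any of 8 of the 10 arrays (adjusted p up to 0.0862, and 0.0619 without WD SW liver 5R) and under 3 of 9 processing alternatives (up to 0.0764, and 0.0742 with no filter). The histone methyltransferase Ezh2 (CD NW 5.39 to 5.90, WD SW 5.43 to 6.33, tumors 4.71 to 6.78) passed in no comparison with all arrays. Its lowest level was in tumor 4N, and without that array it was higher in tumors than in CD NW livers by the filtered and the unfiltered test. Leaving out the lowest tumor had to raise this difference, so the call is no separate result.

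Counts over the 37 genes with a probe were taken with no filter on dim probes, because a gene that was bright in 1 group alone enters a filtered test only through that group. At an unadjusted p under 0.05 by limma there were 15 of 37 between WD SW and CD NW livers, against 3006 of all 17793 genes. By the adjusted p, 8 of 37 were higher (Mcm4, Mcm5, Mcm6, Cdk1, Birc5, Plk1, Nusap1 and Prc1) and 0 lower in WD SW livers, against 2.85% higher and 1.16% lower of all 17793 genes. The same 8 were called without WD SW liver 5R, and 7 of them (all but Mcm5) were called whichever array was left out, with counts of 7 to 12. They were 3 of 17 S-phase and 5 of 16 mitotic genes. The median difference was 0.16 over the S-phase and 0.58 over the mitotic genes, and -0.02 over all genes.
With the filter, 17 of the 39 entered, of which 6 were higher and 0 lower (6.07% and 3.7% of all 8429 genes tested). Without WD SW liver 5R the filtered count was 4, namely Mcm4, Plk1, Nusap1 and Prc1.

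Tumors against CD NW livers, with no filter, gave 14 of 37 higher and 0 lower, where 5.42% and 4.83% of all genes were called. These were 4 of 17 S-phase genes (Mcm2, Mcm4, Mcm5 and Mcm6), 9 of 16 mitotic genes (Top2a, Cdk1, Birc5, Bub1b, Aurkb, Plk1, Cdc20, Nusap1 and Prc1) and Stmn1. With the filter 16 entered, and 6 were higher and 1 lower (12.3% and 12.8% of all genes tested). Leaving out 1 array gave 11 to 17 with no filter, all higher except Tk1, which was lower without tumor 5R. The comparison shares its CD NW arrays with that of the livers, so the 2 are not independent.

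Tumors against WD SW livers gave 0 of 37 with no filter by limma (0.714% of all genes higher and 0.792% lower). At an unadjusted p under 0.05 by limma there were 4 of 37, against 2244 of all 17793 genes. With the filter, 1 of the 23 that entered was higher, Stmn1, and 0 were lower (1.96% and 2.05% of all genes tested). These fits did not pair the tumor and liver of a mouse. With the filter and the mouse as a block, Stmn1 was again the only call, where 4.42% of all genes tested were higher and 6.04% lower. The block was not used with no filter. Median differences were 0.13 for S-phase and 0.46 for mitotic genes with no filter, and -0.003 over all genes. For the 8 mitotic genes above background on at least 5 arrays, the SD was 0.69 to 1.37 among the 5 tumors and 0.25 to 0.64 among WD SW livers. In the 13 S-phase genes with the same detection it was 0.28 to 0.91 and 0.21 to 0.82. CD NW livers are left out here, since 7 of the 8 mitotic genes were above background on 0 or 1 of their 5 arrays and their spread is that of the background. Background limits the other spreads too. Aurka was above it on 2 WD SW livers and 3 tumors, and Top2a on 3 of each.

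Each tumor was also set against the liver of its own mouse. In mouse 4N all 8 mitotic genes were higher in the tumor by over 1 on the log2 scale, with a median of 1.75 and the largest difference in Cdc20 (2.6). Mouse 5R had 7 of 8 higher by over 1 (median 1.18) and mouse 5N 4 of 8 (median 1.01), and in both all 8 were higher. In mouse 4R the median was 0.31, 6 of 8 were higher, and only Cdc20 by over 1 (1.24).
In mouse 6L all 8 were lower in the tumor, 6 of them by over 1, with a median of -1.08 and the largest difference in Prc1 (-1.63). Over 8989 genes, 1.79% to 6.96% were higher by over 1 in a tumor than in its liver, and in mouse 6L 8.13% were lower by over 1, with medians of -0.06 to 0.03. A single tumor and a single liver allow no test, so these are differences between 2 arrays.

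**Figure D3:**
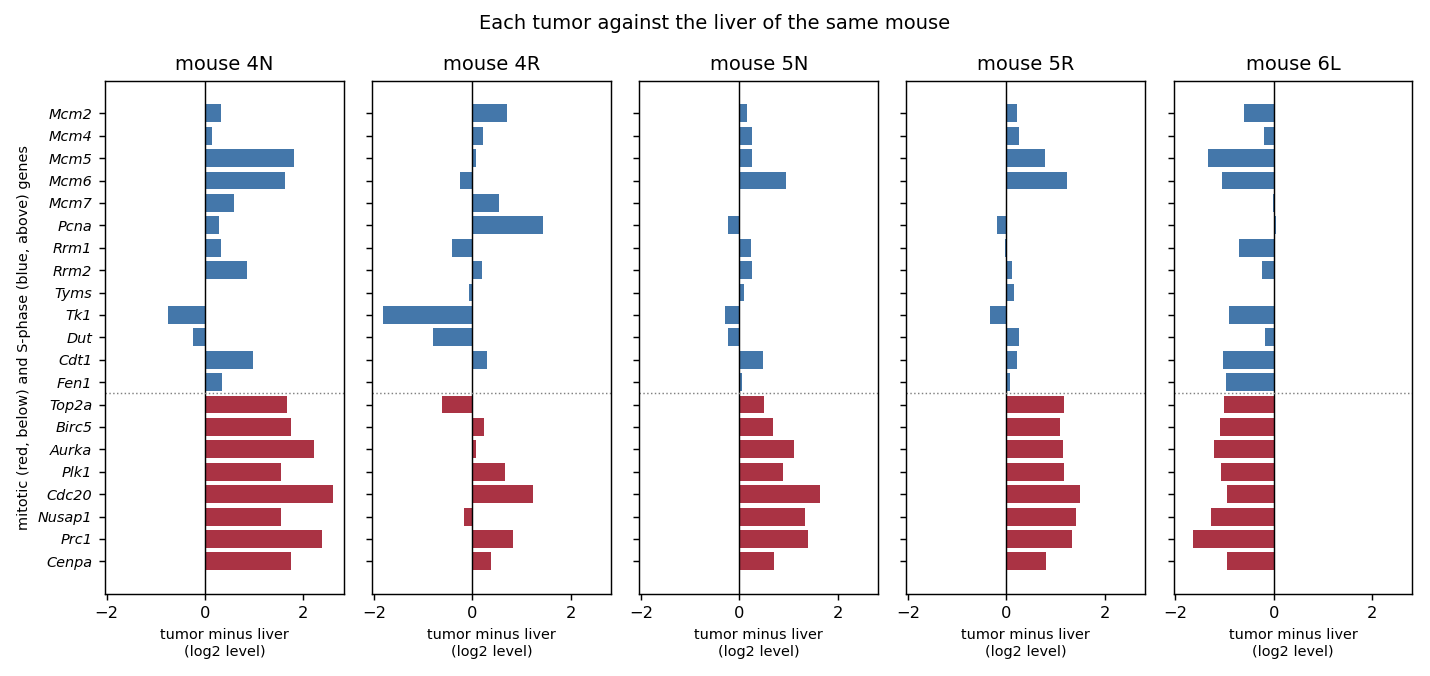
Tumor minus liver of the same mouse in log2 level, 1 bar a gene, for the 13 S-phase genes (blue, above) and 8 mitotic genes (red, below) above background on at least 5 of 15 arrays, 1 panel a mouse. The mitotic bars point to the tumor in all 8 genes of mice 4N, 5N and 5R and to the liver in all 8 genes of mouse 6L, and the S-phase bars are mostly shorter.

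S-phase genes were also highest against the liver in mouse 4N and lowest in mouse 6L, with smaller differences. Their median tumor minus liver was 0.33, 0.08, 0.17, 0.15 and -0.59 in mice 4N, 4R, 5N, 5R and 6L, over 13 genes. Mcm5 and Mcm6 came nearest to the mitotic genes, at 1.81 and 1.62 in mouse 4N and -1.33 and -1.04 in mouse 6L. Tk1 was lower in all 5 tumors, with its largest gap in mouse 4R. Pcna was higher by 1.43 in the tumor of 4R and differed by -0.22 to 0.29 in the other 4 mice.

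Tumor 6L was low in these genes also when set against CD NW livers. Its 8 mitotic genes had a median of 0.12 above the CD NW mean, and Prc1 alone was higher by over 1, at 1.36. Medians were 2.52, 2.15 and 2.02 in tumors 4N, 5N and 5R, with all 8 genes higher by over 1 in each, and 1.06 in tumor 4R with 4 of 8, where 6.79% to 9.19% of all genes were higher by over 1. Since 7 of the 8 genes were at background in nearly all CD NW livers and entered through the other groups, these differences depend on the background level and are a description only. With tumor 6L left out, Cdc20 (1.75, adjusted p = 0.0284 by limma) and Plk1 (1.03, adjusted p = 0.0365) passed the test of tumors against WD SW livers and 3 genes were called in place of 1. Leaving out any other of the 10 arrays gave 0 or 1. Tumor 6L was the lowest tumor for these mitotic genes, so leaving it out had to raise their difference and narrow their spread. These calls are therefore no separate result, and with no filter only Cdc20 was called without tumor 6L.

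The mean over the 8 mitotic genes was 5.04 ± 0.14 (SD, n = 5) in CD NW livers, 6.07 ± 0.32 in WD SW livers and 6.74 ± 0.97 in tumors. The mean over the 13 S-phase genes was 6.22 ± 0.09, 6.56 ± 0.23 and 6.62 ± 0.33. The S-phase mean minus the mitotic mean, whose own size depends on the probes and of which only changes between arrays can be read, was therefore 1.18 ± 0.14 in CD NW livers, 0.49 ± 0.14 in WD SW livers and -0.12 ± 0.68 in tumors.
By array it was 1.05 to 1.39 in CD NW livers and 0.26 to 0.61 in WD SW livers. However, 7 of the 8 mitotic genes entered through WD SW livers and tumors alone, so the filter favored a gap between the livers, and its size is no result. The S-phase genes Mcm2, Mcm5 and Mcm6 entered in the same way. Over all 17 S-phase and 16 mitotic genes with a probe the ranges were 1.02 to 1.28 in CD NW and 0.61 to 0.88 in WD SW livers. In tumors, over the 13 S-phase and 8 mitotic genes, it was -0.83, 0.26, -0.36, -0.51 and 0.86 in 4N, 4R, 5N, 5R and 6L. Thus 3 tumors lay below every liver, 4R at the lowest WD SW liver and 6L between the livers of the 2 diets. The means are given as a description without a test. The step between the livers was -0.69, and it was -0.12 over the 7 genes above background on all 15 arrays, of which Cenpa is the only mitotic one, with overlapping ranges of -0.93 to -0.57 in CD NW and -1.19 to -0.58 in WD SW livers. Over these 7 genes tumors 4N, 4R, 5N, 5R and 6L were at -2.30, -1.26, -1.76, -1.69 and -0.66, so that 4 tumors lay below every liver and 6L within the range of the livers.

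**Figure D4:**
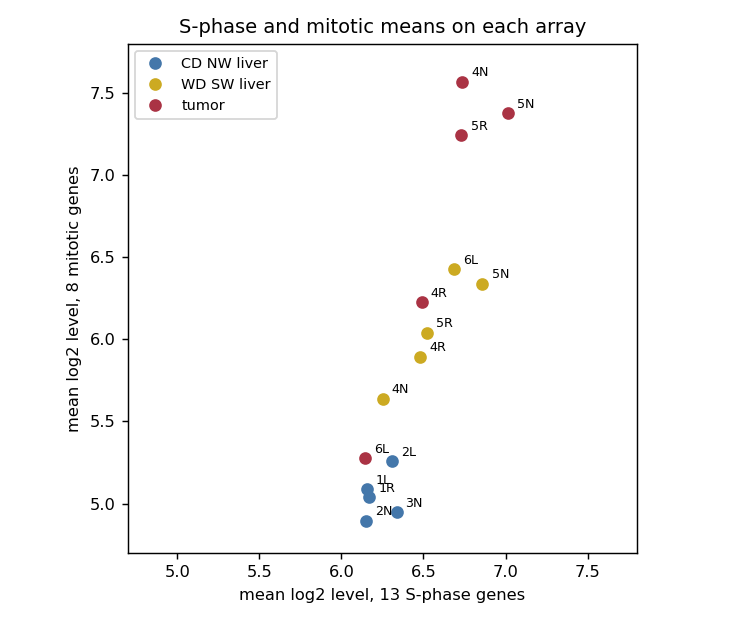
Mean log2 level of 8 mitotic genes (y axis) against that of 13 S-phase genes (x axis), 1 point an array, labeled by mouse. CD NW livers lie between 4.89 and 5.26 and WD SW livers between 5.64 and 6.43 on the y axis, tumors 4N, 5N and 5R lie between 7.24 and 7.57, and tumor 6L lies at 5.28 near the CD NW livers, while the x axis spans 6.14 to 7.01.

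Other genes of the cycle were taken from lists of 45 further S-phase, 43 further mitotic and 7 G1 cyclin and Cdk genes. Of the S-phase list 44 had a probe, and with no filter 2 were higher and 0 lower in WD SW livers, and 5 higher and 1 lower in tumors, than in CD NW livers. Of the mitotic list 43 had a probe, with 1 higher and 0 lower, and 7 higher and 1 lower, in the same comparisons. Of all 17793 genes, 2.85% were higher and 1.16% lower between the livers, and 5.42% and 4.83% between tumors and CD NW livers. The counts of both lists between the livers were near these shares. Of the 7 G1 genes, 0 differed between the livers by limma (3 at an unadjusted p under 0.05, against 3006 of all 17793 genes) and 1 was higher in tumors than in CD NW livers. Between tumors and WD SW livers 0 passed by limma in each list, with 3, 5 and 3 at an unadjusted p under 0.05, against 2244 of all 17793 genes. With the filter and the mouse as a block, 3 of 26, 2 of 14 and 2 of 6 passed between them, where 4.42% of all 8674 genes were higher and 6.04% lower. The counts of the longer lists are near this background. Of the genes named for other tests, those that passed with the block were Ccnd1 (1.16, adjusted p = 0.018 by limma, against 0.235 without the block), Mcm10 (-1.25, 0.0203 against 0.239), Kif23 (-0.60, 0.0451 against 0.181) and Kif22 (0.97, 0.0482 against 0.0606).

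Uhrf1, which carries DNA methylation over to the new strand, was above background in no CD NW liver (4.42 to 4.86) and reached 5.87 to 7.94 in WD SW livers (at least 2.66-fold, adjusted p = 0.00306 by limma) and 5.79 to 7.96 in tumors (at least 2.92-fold, adjusted p = 0.000338). The spindle checkpoint gene Mad2l1 rose by 0.99 ± 0.25 in WD SW livers (adjusted p = 0.0305) and by 1.49 ± 0.21 in tumors (adjusted p = 0.000301) over CD NW livers. It was at 6.27 in tumor 6L and at 4.79 to 5.45 in CD NW livers. Rfc5, a subunit of the clamp loader, was lower in WD SW than in CD NW livers by 0.56 ± 0.15 (adjusted p = 0.0417). With no filter, Mad2l1 (0.0599) and Rfc5 (0.0831) missed the threshold between the livers.

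In tumors against CD NW livers, DNA ligase 1 (Lig1) rose by 1.28 ± 0.25 (adjusted p = 0.00306 by limma) and the chromosome motor Kif22 by 1.28 ± 0.27 (adjusted p = 0.00498). Ccnd1, cyclin D1, which acts in G1, rose by 2.16 ± 0.42 (adjusted p = 0.00289), from 8.64 to 9.70 in CD NW livers to 10.98 to 12.19 in tumors 4N, 4R, 5N and 5R and 9.59 in tumor 6L. The probes annotated to Mcm10, a replication initiation factor, and Kif23, a motor of cytokinesis, were bright on all arrays and lower in tumors, Mcm10 by 2.34 ± 0.45 (from 11.16 to 12.29 in CD NW livers to 7.92 to 10.42 in tumors, adjusted p = 0.00279 by limma) and Kif23 by 1.26 ± 0.14 (from 10.10 to 10.30 to 8.69 to 9.39, adjusted p = 7.26e-05). In CD NW livers the Mcm10 probe had a mean of 11.58, above the probe of the hepatocyte marker Alb (10.64). Whether these 2 probes read the named genes alone was not tested.

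Markers of other cells moved between the groups too. Macrophage markers, of which 12 of 13 had a probe, had a summed linear level of 1092 to 1911 in CD NW livers, 4406 to 21558 in WD SW livers and 1946 to 6323 in tumors, with 8, 9 and 9 of them above background on at least 3 arrays of the group. The WD SW liver of mouse 6L had the highest sum (21558) and also the highest mitotic mean of the livers (6.43), and its tumor had the highest sum of the tumors (6323) and their lowest mitotic mean (5.28). Granulocyte markers (9 of 10 with a probe) summed to 248.9 to 948, 590 to 3553 and 265 to 2574. Of 9 T and NK cell markers with a probe, 0, 3 and 0 were above background in the groups. The part of these cells in the levels of cell cycle genes was not tested.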

How the data were processed

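RNA levels of 15 samples (5 a group) were measured on Illumina mouse BeadChips. The authors deposited unnormalized probe intensity values for 45281 probes, which were used here, and a processed table of intensity values on a linear scale, whose normalization no source used here gives and which served as an alternative. A probe's gene came from GEO's platform annotation, brought up to date by gene ID (34885 probes with 1 symbol, 18 with several genes, 10378 with none).

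No control probes were used here, so 1526 Olfr, Vmn1r, Vmn2r and Taar probes served as negative controls for detection and for neqc of limma 3.58.1 (R 4.3.3; normexp background, offset 16, quantile normalization, log2). The brightest probe over the 15 arrays stood for a gene. For several genes, among them Prc1 and Nusap1, dimmer probes were above background on no array. Each comparison was fitted on its 10 arrays with lmFit and eBayes (trend), over genes whose probe was above background (detection p below 0.01) on 5 or more of them, or over all genes with a probe (no filter), and p-values were adjusted over all genes tested (threshold 0.05). The fits were tested on simulated data for the genes that passed the filter. Over the 3 comparisons, 17.9% to 31.3% of 1.5-fold, 58.2% to 65.7% of 2-fold and 86.4% to 92.4% of 4-fold changes were recovered. A gene that was not called may therefore still differ. A lower bound on a fold compares the bright group's mean with the higher of each dim array's detection level and the probe's own level. Promoter windows came from RefSeq. Scripts also used Python 3.11.15, pandas 2.3.3 and matplotlib 3.10.9.

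The genes and lists were chosen with earlier results of these data known. Values on every array are given for genes that passed in a filtered comparison and for Top2a, Pcna, Cdk1 and Ccne1, and from each other list up to 3 genes with the smallest adjusted p. Other genes were named after their values were seen. Tumor and liver carry the same 5 mouse labels, and each tumor's deviation from its group mean correlated best with the liver of its own mouse (r of 0.189 to 0.52 across genes). The fit without this block was the main one, because the methods text used here states no block. Mice are separate animals, and 5 arrays a group limit the precision. Alternatives were other background corrections and normalizations, filters, detection thresholds, probe choices, weights, a joint fit, the block, and each array left out. Leaving out arrays with no filter was added after the data were seen.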

Additional observations from a re-analysis of the deposited data

Results flagged for a closer look

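In groups of 5 arrays, the lowest or highest value was tested for standing apart by Dixon's rule over 78 groups (23 genes above background on at least 5 arrays, and the phase means), and 4 were marked, where chance marks about 1 in 20. CD NW liver 1L had the lowest Pcna of its group (5.37, with the nearest at 6.19). WD SW liver 4N had the lowest Rrm1 (6.08, nearest 6.73). Tumor 5N had the highest Fen1 (7.53, nearest 7.05). WD SW liver 6L had the highest Nusap1 (6.29, nearest 5.82). No explanation was tested for these values.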

How the results depend on the processing

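Between WD SW and CD NW livers, Prc1, Nusap1 and Mcm4 kept their call under every alternative in which they were tested, Plk1 lost it in the joint fit, and Cdc20 lost it under 7 and Stmn1 under 3 of 9 processing alternatives. Of the genes described, 6 were called there, against 1 (Mcm4) when only probes above background on all 10 arrays entered and 3 in 1 fit of all 15 arrays, and the count over all genes was 824, or 499 with detection on all 10 arrays. Between tumors and WD SW livers, 1 was called, against 0 with median scaling and 0 with no filter. The count over all genes there was 348, against 221 with detection on all 10 arrays, 681 in the joint fit, 552 with array weights and 907 with the mouse as a replicate block, under which no call among the 23 of the 39 genes that entered changed (Stmn1 adjusted p = 0.0228). Between tumors and CD NW livers, 7 were called, against 14 with no filter and 2 (Mcm4 and Tk1) with detection on all 10 arrays, where fewer genes entered. The step of the S-phase minus mitotic level between the livers (-0.69) was -0.25 with no background correction, -0.33 with normexp at an offset of 50, -0.25 in the authors' processed values, -0.12 over genes above background on all 15 arrays and -0.32 over all genes with a probe. The cause of these shifts was not tested. Leaving out 1 array gave 475 (without CD NW liver 2L) to 964 (without WD SW liver 5R), 154 (without WD SW liver 4R) to 468 (without WD SW liver 5R), and 1511 to 2254 genes in the 3 comparisons, and 4 to 6, 0 to 3 and 6 to 7 of the genes described. With no filter these were 7 to 12, 0 to 1 (Cdc20, without tumor 6L) and 11 to 17. The S-phase minus mitotic steps then ranged from -0.72 to -0.63 and from -0.85 to -0.43. Genes near the background of the arrays limit all counts here, since their levels are bounds.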
